A study of Mus musculus with 4 samples.

Results

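L6-Syt6 neurons are the excitatory neurons of the mouse ventromedial prefrontal cortex (vmPFC) that the authors assigned to layer 6 and named after Syt6, which encodes a synaptotagmin. The members were all cells that carried this subtype in the authors' annotation of excitatory neurons. There were 4819 such neurons among 8210 excitatory neurons with a subtype and 20047 annotated cells. Each neuron was joined by its library and cell name to 5 counts of virus barcodes, which gave its projection targets. Gene expression values were not analysed here, so the name was not checked against Syt6, Foxp2, Sulf1 or Slc17a7 and was used as the authors gave it.

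Layer 6 of the cortex holds corticothalamic neurons, whose axons leave the cortex for the thalamus and excite relay cells and cells of the reticular nucleus there. In the prefrontal cortex the main partner in the thalamus is the mediodorsal nucleus (MD), which sends axons back to the same cortical area and takes part in working memory and decision making. Layer 6 also holds neurons whose axons stay within the cortex and reach other cortical areas. Most neurons that leave the cortex for the hypothalamus and other deep structures are usually placed in layer 5.

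In MERGE-seq, a virus that enters axon terminals and travels back to the cell body carries a transcribed barcode, so that a neuron's barcodes name the sites its axon reaches, and the same cell's transcriptome names its type. Male C57BL/6 mice of 8 weeks were injected on one side with rAAV2-retro viruses expressing EGFP and a 15-base barcode from the CAG promoter. Each target received its own barcode: the agranular insular cortex (AI), the dorsomedial striatum (DMS), MD, the basolateral amygdala (BLA) and the lateral hypothalamus (LH). Virus titre and volume differed between the targets. The prelimbic and infralimbic cortex was taken 6 weeks later. The unsorted group held 3 libraries, 1 from each of 3 mice, and the FAC-sorted group held 1 library of EGFP-positive cells pooled from 3 other mice, with no replicate. All mice received all 5 viruses, and there was no uninjected control. A site that was not injected cannot be seen, and a barcode can be missed, so an absent barcode is no proof of an absent axon branch. The CAG promoter is not restricted to a cell type, and uptake by passing fibres was not measured here.

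The 3 unsorted mice gave 1426, 1354 and 1300 L6-Syt6 neurons, and sorting gave 739. They were 58.4%, 63.1% and 61.3% of the subtyped neurons of the unsorted mice (61.0% ± 2.35, SD, n = 3) and 49.1% of the FAC-sorted ones (95% Clopper-Pearson interval 46.5 to 51.7%). The other subtypes were L6-Npy with 1031 neurons, L5-S100b with 954, L2/3-Rorb with 482, L2/3-Calb1 with 334, L5-Htr2c with 320 and L5-Bcl6 with 270. L6-Syt6 was thus the most frequent subtype in every library. Intervals on single libraries cover counting error only, here and below, since the cells of a library share a mouse or a pool of mice. 2 of 4817 L6-Syt6 cell barcodes occurred in more than 1 library.

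The median L6-Syt6 neuron held 22221, 22553 and 23709 RNA UMIs (unique molecular identifiers, which mark single molecules) in unsorted mice 1 to 3, and 35305 among sorted cells. Other subtypes together had medians of 18840, 20059, 21133 and 28567 in the same order. A median of 5642, 5673, 5763 and 6876 genes was detected in L6-Syt6 neurons. The mitochondrial percent of their UMIs was 5.91, 5.91, 5.92 and 2.76, against 7.46, 7.47, 7.40 and 4.10 in other subtypes. L6-Syt6 neurons were therefore deeper than the other subtypes pooled within each library, while L5-S100b and L5-Bcl6 had unsorted medians of 23667 ± 1647 and 23134 ± 1657 UMIs against 22828 ± 781 for L6-Syt6 (SD, n = 3). Barcode sequencing gave 2542, 4115 and 4544 reads for each recovered cell of the unsorted mice, and 14639 for each sorted cell, so sorting and barcode depth cannot be told apart where barcode labelling differed between the groups. The authors had filtered cells on RNA depth and regressed it out before clustering, and its differences between subtypes were not tested.

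The first question was how much of each barcode L6-Syt6 neurons carried. Barcode UMIs were few in the typical neuron. The median AI count was 2.5, 4, 4 and 13 UMIs (mice 1 to 3, then the FAC-sorted library, in this and later series of 4 values), and the median DMS count was 16, 26, 26 and 77. The median MD count was 6, 9, 9 and 61, the median BLA count 0, 2, 2 and 9, and the median LH count 5, 7, 6 and 36. The FAC-sorted library was the highest for each barcode. In the unsorted mice these medians lay below those of other subtypes for all 5 barcodes, for which MD, for example, had medians of 8, 13 and 15 UMIs. In the FAC-sorted library the medians of L6-Syt6 were above those of other subtypes for MD (61 against 41) and LH (36 against 28) and not for AI, DMS or BLA.

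The upper tail of MD counts ran the other way. The 90th percentile of MD counts in L6-Syt6 neurons was 75.5, 94, 85.1 and 254 UMIs, against 38, 51.9, 59.2 and 102 in other subtypes. The 99th percentile was 185, 218, 252 and 485 UMIs, against 77.9, 97, 99.8 and 168. The typical unsorted L6-Syt6 neuron thus held fewer MD UMIs than the typical neuron of another subtype, while the upper percentiles were higher in each library. For LH the 90th percentile was 42, 53, 49 and 147 UMIs, against 35, 46, 44 and 77.5, a smaller separation in the same direction. Summed over neurons, MD made up 33.5%, 32.4%, 32.5% and 37.2% of all barcode UMIs of L6-Syt6 neurons and 14.3%, 15.5%, 16.5% and 18.9% of those of other subtypes.

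**Figure D1:**
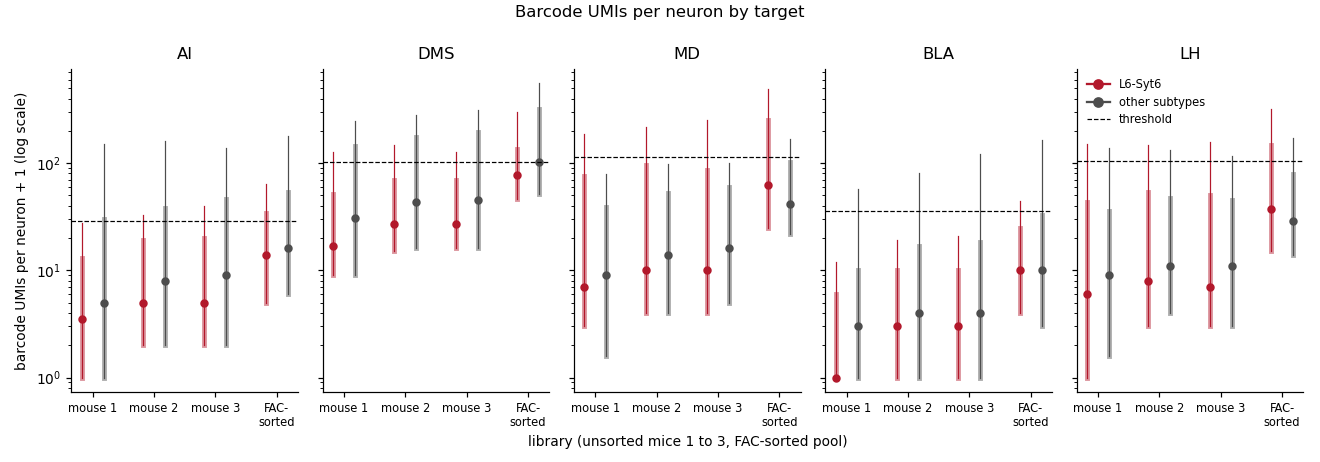
Barcode UMIs of L6-Syt6 neurons (red) and of the other 6 subtypes together (grey) in the 4 libraries, 1 panel for each target, on a log axis of UMIs plus 1. Dots are medians, thick bars run from the 10th to the 90th percentile, thin lines reach the 99th percentile and dashed lines are the authors' thresholds. The 90th percentile of L6-Syt6 in each unsorted mouse lies below the threshold for all 5 targets. Among the L6-Syt6 bars, the MD counts of the FAC-sorted library reach farthest above their threshold, with a 90th percentile of 254 UMIs.

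A single UMI said little about a target. In a recount from the reads, which gave the deposited count in 22731 of 24095 entries and 1 UMI in place of 0 in the other 1364, 98.7% of L6-Syt6 neurons had at least 1 MD UMI and 97.8% at least 1 LH UMI. All but 5 neurons had a DMS UMI, and the share was 92.7% for AI and 77.0% for BLA. Among 9822 non-neuronal cells, which have no axons, the shares were 66.4% for MD, 58.6% for LH, 95.1% for DMS, 41.0% for AI and 21.6% for BLA, at a median of 4114 RNA UMIs against 23779 in L6-Syt6 neurons. Calls therefore followed the authors' thresholds. The lowest count that made a barcode valid was 29 UMIs in the case of AI, 102 for DMS, 115 for MD, 36 in the case of BLA and 104 for LH. Of the non-neuronal cells, 4 passed for AI, 5 for DMS, 4 for MD, none for BLA (which allows up to 3) and 3 for LH. The authors took each threshold as the higher of a value from such cells and one from a second control, so that few could pass by construction and the counts are no independent check. All 24095 calls of the L6-Syt6 neurons made this way equalled the authors' own.

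Valid counts were often close to the threshold. The median valid MD count was 172 UMIs and the median MD count of neurons without a valid MD barcode was 9. Of the 494 valid MD counts, 49.4% lay within 1.5 times the threshold, and by library 63.4%, 62.4%, 52.3% and 37.6%. It was 73.8%, 79.5%, 70.2% and 42.6% for LH and 45.8%, 63.9%, 79.4% and 75.9% for DMS. Over all libraries the share was 59.2% of 255 for LH, 72.3% of 289 for DMS, 77.3% of 203 for AI and 87.0% of 23 for BLA. Calls for MD and LH were thus most often far from the threshold in the FAC-sorted library, and the order of the targets was not the same in each library. Below the thresholds lay many more neurons of intermediate count: 926 held between 0.5 and 1 times the DMS threshold, 607 did so for AI and 507 for MD.

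At the authors' thresholds MD was the target found most often in L6-Syt6 neurons in every library. Its barcode was valid in 71 of 1426, 109 of 1354 and 88 of 1300 neurons of the unsorted mice, which was 4.98%, 8.05% and 6.77% (6.60% ± 1.54, SD, n = 3), and in 226 of 739 FAC-sorted neurons, which was 30.6% (27.3 to 34.0%). Other subtypes together had 0.0986%, 0.631%, 0.611% and 7.31%. The unsorted values of L6-Syt6 and of the other subtypes pooled did not overlap, and the FAC-sorted value of L6-Syt6 lay above all others. L5-Bcl6 alone had 1.11%, 5.00%, 5.00% and 10.0%, below L6-Syt6 within each library. Its values in mice 2 and 3 were just above the L6-Syt6 value of mouse 1. The difference was 4.88, 7.42, 6.16 and 23.3 percentage points (mean 10.4 ± 8.62, SD, n = 4), positive in 4 of 4 libraries. An exact two-sided sign-flip permutation test of these 4 differences gave p = 0.13, reached by 2 of the 16 sign patterns and the smallest value that 4 libraries allow, so that no such test could pass a threshold of 0.05. The adjusted p was also 0.13 over 6 comparisons. Without the FAC-sorted library the mean difference was 6.15 ± 1.27 points, with barcode reads thinned to an equal number for each recovered cell 5.30 and with UMIs of at least 2 reads 2.24. With thresholds at the 99th percentile of non-neuronal cells the mean difference was -6.85. The MD threshold there was 9 UMIs, equal to the median MD count of L6-Syt6 neurons without a valid MD barcode. It was passed by 725 of 739 FAC-sorted L6-Syt6 neurons. Of all subtyped neurons with a valid MD barcode, 98.6%, 95.6%, 94.6% and 80.1% were L6-Syt6. Among all subtyped neurons of each library the share was 58.4%, 63.1%, 61.3% and 49.1%.

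LH came next on the mean of the unsorted mice, with AI above it in mouse 3. It was valid in 42, 44 and 47 neurons, which was 2.95%, 3.25% and 3.62% (3.27% ± 0.336), and in 122 FAC-sorted neurons, which was 16.5% (13.9 to 19.4%). Other subtypes had 2.37%, 1.77%, 1.22% and 4.05%. Here too the unsorted values did not overlap. Within a library the difference was smallest in mouse 1, at 0.578 points, and it was positive in 4 of 4 libraries. Its mean was 4.23 ± 5.54 points (n = 4, exact sign-flip permutation p = 0.13, adjusted p = 0.13), and without the FAC-sorted library 1.48 ± 0.908 points. The mean was 0.916 points with thinned barcode reads and 0.521 with UMIs of at least 2 reads, where the unsorted mice were negative. Those negative values rest on LH calls in only 2, 1 and 1 L6-Syt6 neurons. L6-Syt6 neurons made up 63.6%, 75.9%, 82.5% and 79.7% of all subtyped neurons with a valid LH barcode. Of all subtyped neurons they were 58.4%, 63.1%, 61.3% and 49.1%. The LH value of mouse 1 was thus near its overall share, with an interval of 50.9 to 75.1%.

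AI, DMS and BLA were rarer in L6-Syt6 neurons than in the other subtypes together. The DMS share was 1.68%, 2.66% and 2.62% without sorting and 26.4% (23.2 to 29.7%) with it, against 16.8%, 22.7%, 27.4% and 49.5%. The AI share was 0.771%, 2.51%, 4.00% and 14.3% (11.9 to 17.1%), against 10.5%, 16.2%, 20.1% and 26.5%. The unsorted values of the 2 groups did not overlap for either target. Among the other subtypes AI was also rare in L2/3-Calb1, at 1.94%, 2.04%, 4.21% and 10.5%. It was valid in 0 of 320 L5-Htr2c neurons, which allows up to 0.938%, and DMS was valid in 1 of these 320. BLA was valid for 0 of 1426, 0 of 1354 and 2 of 1300 unsorted neurons and for 21 of 739 sorted ones (2.84%, 1.77 to 4.31%), where the counts of 0 allow shares of up to 0.210% and 0.222%. Other subtypes had BLA shares of 2.17%, 3.16%, 4.27% and 7.57%. The mean differences were -20.7 ± 4.24 points for DMS, -12.9 ± 2.71 for AI and -3.54 ± 1.12 for BLA, each negative in 4 of 4 libraries (exact sign-flip permutation p = 0.13 each, the smallest possible, adjusted p = 0.13). Their size depended on the threshold: set per 10000 RNA UMIs, the DMS and AI differences were -2.73 and -2.97 points, and at thresholds from non-neuronal cells alone the BLA difference was -8.77 or -11.7.

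**Figure D2:**
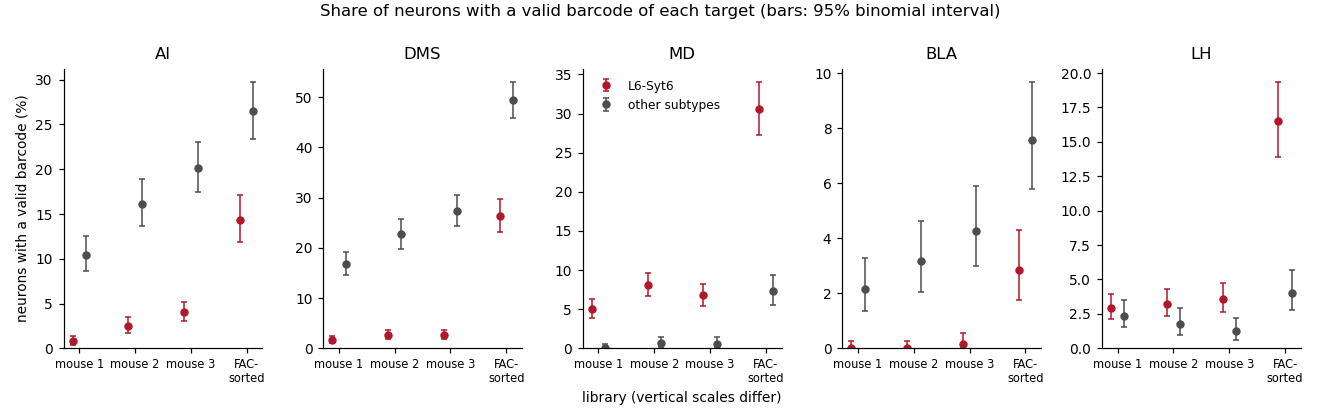
Percent of neurons with a valid barcode for each target, for L6-Syt6 (red) and the other 6 subtypes together (grey), by library, with 95% Clopper-Pearson intervals. The vertical scales differ between panels. L6-Syt6 lies above the other subtypes in all 4 libraries for MD and LH and below them in all 4 for AI, DMS and BLA.

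Any valid barcode was carried by 141, 165 and 139 L6-Syt6 neurons of the unsorted mice, which was 9.89%, 12.2% and 10.7% (10.9% ± 1.17), and by 334 FAC-sorted ones, which was 45.2% (41.6 to 48.9%). In total 779 L6-Syt6 neurons were barcoded and 4040 were not. The barcoded and target shares are of the neurons kept after the authors removed the cells of highest summed barcode UMIs. They therefore leave out the most heavily labelled cells, and how many of those were L6-Syt6 was not examined. The FAC-sorted share was 34.3 points above the unsorted mean, with 1 sorted library. The exact one-sided permutation test of 1 library against 3 gave p = 0.25, the smallest it can give, so it says nothing about the difference. The difference was 3.11 points with barcode reads thinned to an equal number for each recovered cell. Recovered cells include non-neuronal ones, of which 3503 were annotated in mouse 1 and 73 in the FAC-sorted library. Equal reads per recovered cell were therefore not equal reads per neuron, and the 3.11 points are no comparison at matched barcode depth. Other subtypes were barcoded in 27.1%, 32.8%, 35.4% and 58.2% of neurons, and the difference of -18.9 ± 4.97 points was negative in 4 of 4 libraries (exact sign-flip permutation p = 0.13, adjusted p = 0.13). The other subtypes were not alike in this. L2/3-Calb1 had 9.71%, 16.3%, 15.8% and 42.1%, and L5-Htr2c had 1 barcoded neuron of 320.

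The nearest comparison by layer was L6-Npy, the other layer 6 subtype. MD was valid in 0, 1, 0 and 9 L6-Npy neurons and LH in 0, 3, 0 and 2 of 265, 239, 250 and 277. L6-Syt6 exceeded L6-Npy by 4.98, 7.63, 6.77 and 27.3 points for MD and by 2.95, 1.99, 3.62 and 15.8 points for LH. The mean difference was -13.1 ± 5.98 points for AI and -19.5 ± 6.98 for DMS. All 4 libraries had the same sign for each of these targets (exact sign-flip permutation p = 0.13). L6-Syt6 thus lay above L6-Npy for MD and LH and below it for AI and DMS in each library.

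The nearest comparison by target was L5-Bcl6, the other subtype with frequent LH labelling. L6-Syt6 had 7.32 ± 8.89 points more MD (2.90 ± 1.06 without the FAC-sorted library), positive in 4 of 4 libraries, and less LH, with a difference of -23.7, -13.4, -11.4 and -20.2 points (mean -17.2 ± 5.76). The DMS difference was -10.6 ± 5.22 points on average and negative in 4 of 4 libraries. For these 3 targets the exact sign-flip permutation test gave p = 0.13 and an adjusted p of 0.188. AI differed by -1.54 ± 2.36 points with 3 of 4 libraries negative (exact permutation p = 0.375) and BLA by -0.501 ± 1.87 (exact permutation p = 1). L5-Bcl6 thus had the higher LH share, while L6-Syt6, with 4819 neurons against 270, held more of the LH-labelled neurons, 255 against 65.

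At the authors' thresholds the order of the labelled shares within L6-Syt6 was partly fixed across libraries. Virus titre, volume and threshold differed between targets, so this order need not be an order of projections. MD exceeded DMS by 3.30, 5.39, 4.15 and 4.19 points (mean 4.26 ± 0.861, exact sign-flip permutation p = 0.13, adjusted p = 0.179 over 10 contrasts). It exceeded LH by 2.03, 4.80, 3.15 and 14.1 points, and BLA was the lowest in each library. The order of LH, DMS and AI was not fixed. LH exceeded DMS by 1.26, 0.591 and 1.00 points in the unsorted mice, whereas DMS exceeded LH by 9.88 points in the FAC-sorted library, and AI minus DMS was -0.912, -0.148, 1.38 and -12.0 points (exact permutation p = 0.625). With molecules read with several barcodes given to 1 of them, LH minus DMS in the FAC-sorted library was 7.44 points. It was 0.541 with thinned barcode reads, -10.0 with exact barcode matches and -0.677 with UMIs of at least 2 reads.

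Among barcoded L6-Syt6 neurons, MD was valid in 50.4%, 66.1%, 63.3% and 67.7% and LH in 29.8%, 26.7%, 33.8% and 36.5%. DMS was valid in 17.0%, 21.8%, 24.5% and 58.4%, AI in 7.80%, 20.6%, 37.4% and 31.7% and BLA in 0 of 141 and 0 of 165 (which allow shares of up to 2.13% and 1.82%), 1.44% and 6.29%. The MD and LH shares of the FAC-sorted library lay within 3 points of the highest unsorted value, and its DMS share was more than 2 times as high as any unsorted one. With molecules read with several barcodes given to 1 of them, the DMS shares were 14.9%, 13.8%, 8.82% and 14.6%, and the FAC-sorted library no longer stood apart.

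The next question was which targets occurred together. Of the 31 combinations that 5 targets allow, 19 were found in L6-Syt6 neurons, 15 of them in the unsorted mice and 15 in at least 10 neurons. MD alone was the most frequent with 277 neurons, at 47.5%, 48.5%, 30.9% and 26.0% of the barcoded neurons. LH alone followed with 138 (27.0%, 17.6%, 23.0% and 11.7%) and DMS alone with 74 (15.6%, 9.09%, 5.04% and 8.98%). Of the 281 subtyped neurons with MD alone, 277 were L6-Syt6 (98.6%, 96.4 to 99.6%). For LH alone the share was 78.4% of 176 neurons and for DMS alone 12.5% of 594. L6-Syt6 neurons were 58.7% of all subtyped neurons.

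AI was mostly found with other targets, except in mouse 1. AI stood alone in 7 of 11, 1 of 34, 2 of 52 and 4 of 106 AI-labelled L6-Syt6 neurons. The AI+DMS pair had 14 L6-Syt6 neurons of 306 over all subtypes (4.58%, 2.52 to 7.56%). The most frequent combinations of more than 1 target held MD: AI+DMS+MD had 63 neurons (0, 10, 17 and 36), DMS+MD had 47 (0, 4, 1 and 42), AI+DMS+MD+LH had 31 (0, 1, 4 and 26) and AI+MD had 27 (1, 8, 16 and 2). Combinations with LH and without MD were smaller, with 18 neurons for DMS+LH, 13 for AI+DMS+LH and 10 for AI+LH. AI+MD+LH had 11 neurons, MD+LH had 10 and all 5 targets were valid in 14 neurons, all of the FAC-sorted library. The authors had removed cells of very high summed barcode UMIs, after which the highest sum in an L6-Syt6 neuron was 398, 479, 528 and 1005. The median sum of those 14 neurons was 895.5, above any unsorted neuron kept, so numbers of targets per neuron were limited differently in each library. The libraries differed in which of these they held, since DMS+MD and DMS+LH were almost all from the FAC-sorted library, and AI+MD was mostly from mice 2 and 3. The 18 remaining neurons were spread over DMS+MD+LH with 9, AI+DMS+MD+BLA with 5, BLA alone with 3 and AI+DMS+BLA+LH with 1.

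**Figure D3:**
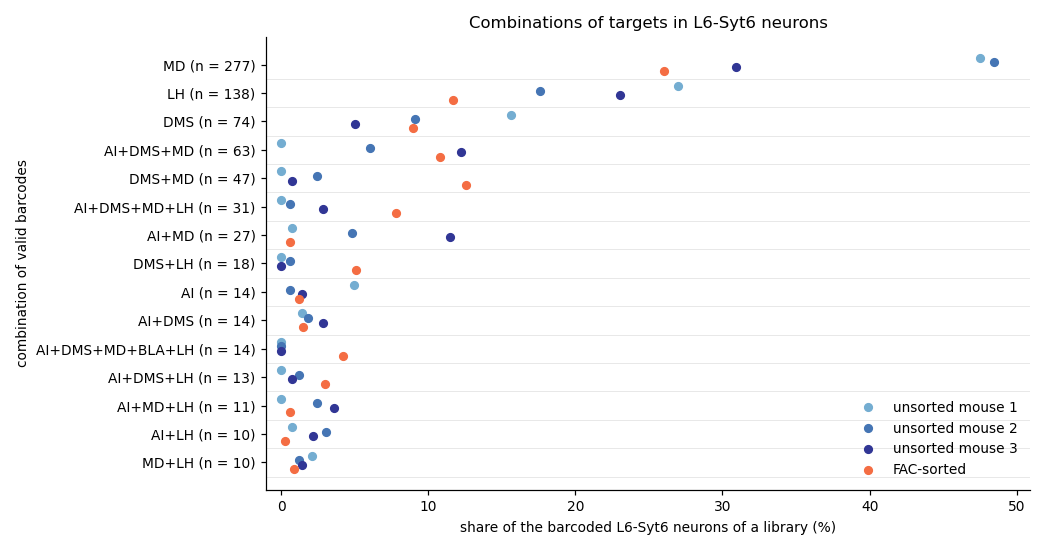
Percent of barcoded L6-Syt6 neurons with each of the 15 target combinations held by at least 10 neurons, for each library. MD alone is the most frequent in every library, from 26.0 to 48.5%, and DMS+MD and DMS+LH are mostly seen in the FAC-sorted library.

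Neurons with more than 1 valid barcode, called collateral here because several of the 5 targets were labelled, were 7 of 141, 40 of 165 and 53 of 139 in the unsorted mice and 173 of 334 in the FAC-sorted library. These were 4.96%, 24.2%, 38.1% and 51.8% of the barcoded neurons (unsorted 22.4% ± 16.7, n = 3). The mice differed more than counting error gives, with intervals of 2.02 to 9.96% in mouse 1 and 30.0 to 46.7% in mouse 3. Mouse 1 also had the fewest barcode reads per recovered cell and the lowest ceiling on the barcode sum, and the FAC-sorted library had the most reads and the highest ceiling. With the barcode reads of each library thinned to an equal number for each recovered cell, the collateral share was 4.96%, 8.08%, 13.6% and 9.76%. This did not set equal barcode depth per L6-Syt6 neuron. Other subtypes had 16.7%, 32.7%, 44.8% and 41.7%. The difference was -11.8, -8.45, -6.70 and 10.1 points and did not keep its sign (exact sign-flip permutation p = 0.5).

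MD was the sole valid barcode in 94.4%, 73.4%, 48.9% and 38.5% of MD-labelled neurons. The same share was 90.5%, 65.9%, 68.1% and 32.0% for LH and 91.7%, 41.7%, 20.6% and 15.4% for DMS. Over all libraries 277 of 494 MD-labelled, 138 of 255 LH-labelled and 74 of 289 DMS-labelled neurons were labelled from 1 target. The lowest value stood in the FAC-sorted library for all 3 targets and the highest in mouse 1.

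For pairs of targets, the share with a second target was compared between neurons with and without the first. LH was valid in 4.23%, 6.42%, 12.5% and 23.9% of MD-labelled neurons and in 2.88%, 2.97%, 2.97% and 13.3% of the others. The difference of 6.24 ± 4.54 points was positive in 4 of 4 libraries (exact sign-flip permutation p = 0.13, adjusted p = 0.313 over 10 pairs). The sign was not stable. The difference was -1.42, -0.711, -0.730 and -0.199 points when molecules read with several barcodes were given to 1 of them, and -0.786, -0.685, -1.11 and 2.32 points at thresholds 1.5 times as high. With UMIs of at least 2 reads it was -0.140, -0.0741, -0.0778 and 8.37 points. In the unsorted mice MD was then valid in only 2, 4 and 14 and LH in 2, 1 and 1 L6-Syt6 neurons. Thinned reads gave -0.0131 in mouse 2, and mouse 1 had -0.652 without neurons above the 90th percentile of RNA UMIs and -1.95 among neurons of 20000 to 30000 RNA UMIs. At the 2 lower thresholds tried, taken from non-neuronal cells alone, the mean rose to 28.8 and 62.0 points. AI-labelled neurons more often had MD than other neurons by 4.14, 61.1, 77.1 and 57.9 points, and more often had DMS by 16.6, 45.5, 49.4 and 76.0 points (exact permutation p = 0.13 each, adjusted p = 0.313). For MD in DMS-labelled against other neurons the difference was -5.06, 34.5, 59.5 and 50.4 points (exact permutation p = 0.25). AI-labelled neurons also had LH more often, by 6.19, 32.9, 22.3 and 40.2 points, and for LH in DMS-labelled against other neurons the difference was -3.0, 8.08, 11.4 and 31.2 points (exact permutation p = 0.13 and 0.25). As counted by the authors, the pairs with a positive difference in all 4 libraries were thus AI with DMS, with MD and with LH, and MD with LH. The AI pairs rest on neurons of which few remained when shared molecules were given to 1 barcode, since AI-labelled neurons went from 11, 34, 52 and 106 to 6, 0, 3 and 7. BLA was paired with AI in 20 neurons, with DMS in 20, with MD in 19 and with LH in 15, all in the FAC-sorted library.

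Counts behind the combinations were then examined, since a threshold treats each barcode on its own. In MD-alone neurons of the unsorted mice the median neuron had 54.4% of its barcode UMIs in MD, 23.7% in DMS, 11.1% in LH, 6.50% in AI and 3.25% in BLA, at a sum of 288.5 UMIs. In AI+DMS+MD neurons of the unsorted mice the same medians were 50.3%, 24.3%, 11.7%, 7.82% and 3.59%, at a sum of 474 UMIs. The AI+MD neurons of all libraries had 54.6% in MD, 23.0% in DMS, 10.8% in LH, 8.53% in AI and 3.35% in BLA at a sum of 383, and the DMS+MD neurons had 52.9%, 25.8%, 11.7%, 5.38% and 4.13% at a sum of 432. The 5 DMS+MD neurons of the unsorted mice had 43.9% in MD and 35.7% in DMS at a sum of 402. Apart from these 5, the make-up of these collateral neurons was close to that of neurons labelled from MD alone, and their total was higher.

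The LH combinations without MD were described in the same way. LH-alone neurons of all libraries held 49.2% of their barcode UMIs in LH, 24.5% in DMS, 15.1% in MD, 6.41% in AI and 3.53% in BLA at a sum of 291. AI+DMS+LH neurons held 48.0%, 23.7%, 15.5%, 6.67% and 3.81% at a sum of 510. DMS+LH neurons held 46.1%, 27.95%, 16.2%, 5.15% and 3.89% at a sum of 436. The 10 AI+LH neurons were farther from LH alone, with 41.6% in LH and 22.3% in MD at a sum of 362. Combinations with both MD and LH valid stood apart, since the 10 MD+LH neurons had medians of 36.3% in MD and 33.0% in LH and the 11 AI+MD+LH neurons 35.7% and 31.1%. AI-alone neurons held 39.9% in AI and 31.0% in DMS, and DMS-alone neurons 59.7% in DMS. In median neurons without a valid barcode, 52.4% of a sum of 42 UMIs was DMS. These percentages are descriptions of neurons that were grouped by their own counts.

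The reads allowed a direct look at molecules counted more than once. A molecule was shared when the same UMI of the same neuron was read with more than 1 barcode. In L6-Syt6 neurons 38.5%, 37.4%, 39.0% and 32.4% of molecules were shared. The share was 63.9% for AI and 67.6% for BLA, against 39.0% for LH, 32.0% for DMS and 29.6% for MD. Of the shared molecules, 95.5% of AI and 96.4% of BLA had more reads with another barcode of the same neuron, against 85.2% for DMS, 57.4% for LH and 31.3% for MD. A shared MD molecule had 192 reads on average and an unshared one 3.29, whereas a shared AI molecule had 5.87 and an unshared one 1.55.

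When each shared UMI was counted only for its barcode of highest read number and the thresholds were kept, valid MD barcodes went from 494 to 455 neurons and valid LH barcodes from 255 to 219. AI went from 203 to 16 and BLA from 23 to 3. DMS went from 289 to 100, and by library from 24, 36, 34 and 195 to 20, 21, 12 and 47. Barcoded neurons went from 779 to 743, and collateral ones from 273 to 50. By library the collateral neurons went from 7, 40, 53 and 173 to 1, 5, 3 and 41, which was 0.746%, 3.29%, 2.21% and 12.8% of the neurons then barcoded. MD and LH thus kept most of their L6-Syt6 neurons under this count, while most AI, DMS, BLA and collateral calls over all libraries were lost. DMS kept most of its calls in mice 1 and 2 and lost most in mouse 3 and the FAC-sorted library. The difference from other subtypes kept its sign for all 5 targets. The thresholds had been set on counts that include shared UMIs, so the second count is stricter for each barcode.

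**Figure D4:**
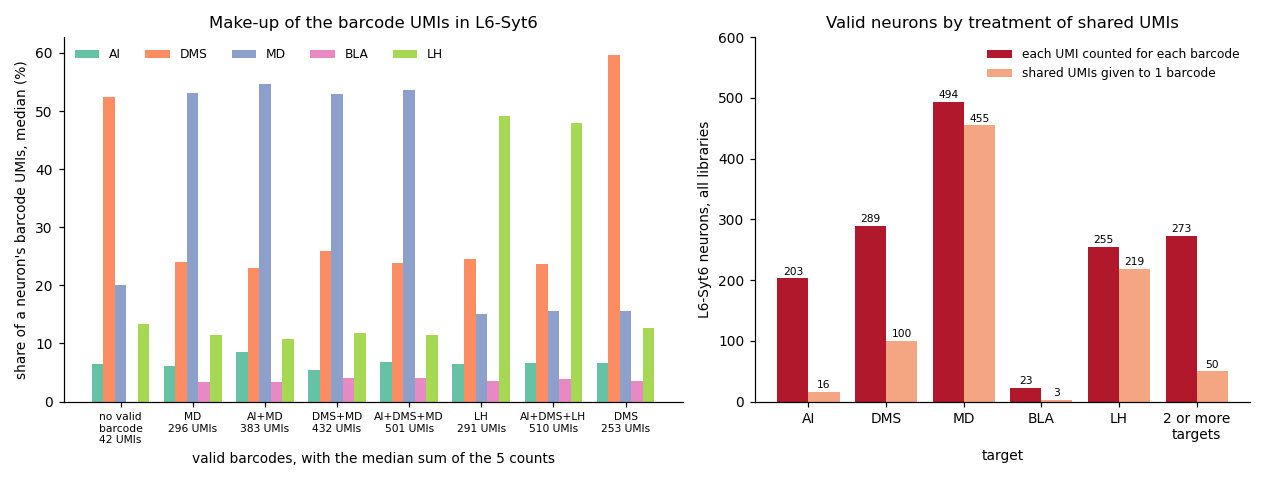
Left, median percent of a neuron's barcode UMIs from each target, for L6-Syt6 neurons grouped by their valid barcodes, with the median sum of barcode UMIs. Right, L6-Syt6 neurons with a valid barcode for each target as deposited and after UMIs read with several barcodes were given to 1 barcode. The 4 groups with MD valid and LH not have similar make-up at sums of 296 to 501, and MD and LH keep 455 of 494 and 219 of 255 neurons while AI keeps 16 of 203.

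Labelled L6-Syt6 neurons held more RNA UMIs than unlabelled ones in each library. The median RNA UMIs of barcoded L6-Syt6 neurons were 24949, 25470, 26393 and 39030, against 21837, 22168, 23344 and 31824 in neurons without a valid barcode. The ratios were 1.14, 1.15, 1.13 and 1.23, a mean log2 ratio of 0.22 ± 0.05, higher in 4 of 4 libraries (exact sign-flip permutation p = 0.13). Over 15 alternatives the mean log2 ratio ran from 0.0725 to 0.902. With UMIs of at least 2 reads it was 0.117, where mouse 1 was negative with only 8 barcoded neurons. Detected genes had ratios of 1.05, 1.05, 1.05 and 1.07. The mitochondrial percent was lower in barcoded neurons, with ratios of 0.956, 0.959, 0.967 and 0.834. Collateral neurons did not stand apart from neurons with 1 barcode in the unsorted mice, with medians of 24673, 25000 and 27377 UMIs against 24986, 25549 and 26103, and were deeper in the FAC-sorted library, with 40837 against 36831.

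The barcoded share was higher in each higher quartile of RNA UMIs, in all 4 libraries. From the lowest to the highest quartile it was 3.08%, 6.46%, 12.9% and 17.1% in mouse 1, 4.13%, 9.17%, 14.5% and 20.9% in mouse 2, and 4.62%, 7.69%, 10.5% and 20.0% in mouse 3. In the FAC-sorted library it was 18.9%, 34.6%, 56.5% and 70.8%. For MD and LH the highest quartile lay above the lowest in each library, although not each step between was upward. MD was valid in 1.40%, 2.36%, 2.46% and 7.57% of the lowest quartile and 8.12%, 13.3%, 13.2% and 48.1% of the highest, and LH in 0.840%, 1.47%, 1.23% and 5.95% and in 5.60%, 5.01%, 5.85% and 25.9%. No test was run on the quartiles. Among neurons of 20000 to 30000 RNA UMIs only, the barcoded share was 12.2%, 14.1% and 11.2% without sorting and 18.2% with it. This window held 154 of 739 FAC-sorted neurons. It reached little beyond their lowest quartile, which ended at 29426 UMIs and had 18.9% barcoded. In the unsorted mice it covered the middle quartiles. The window thus set the shallower sorted neurons against typical unsorted ones, so it cannot show the distance between the groups at matched RNA depth. With thinned barcode reads and no RNA window, the barcoded share was 9.89%, 7.31%, 6.77% and 11.1%.

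The authors' clustering split L6-Syt6 into 3 clusters that they merged under 1 name. Cluster 0 held 2259 neurons, 48.2% ± 1.37 of L6-Syt6 in the unsorted mice (SD, n = 3) and 39.2% of the sorted ones. Cluster 1 held 1356 (27.2% ± 2.50 and 33.7%) and cluster 3 held 1204 (24.6% ± 1.14 and 27.1%). Their median RNA UMIs over all libraries were 21685, 25583 and 26367, so cluster 0 was the shallowest. The genes that separate the clusters were not analysed here.

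The clusters differed in MD and LH labelling, with cluster 1 highest in each library. MD was valid in 2.75%, 5.22%, 3.29% and 17.6% of cluster 0, in 8.71%, 11.8%, 12.6% and 45.8% of cluster 1 and in 5.34%, 9.86%, 6.27% and 30.5% of cluster 3. LH was valid in 1.01%, 1.94%, 1.64% and 9.66% of cluster 0, in 6.60%, 6.19%, 8.23% and 22.5% of cluster 1 and in 2.81%, 2.90%, 1.65% and 19.0% of cluster 3. Cluster 1 exceeded cluster 3 by 6.73 ± 5.99 points for MD (3.88 without the FAC-sorted library) and by 3.79, 3.30, 6.58 and 3.49 points for LH (mean 4.29 ± 1.54). The exact sign-flip permutation test gave p = 0.13 for both, the smallest possible, and an adjusted p of 0.188 over 12 contrasts. With UMIs of at least 2 reads the LH difference was -0.185 on average, where LH was valid in only 2, 1, 1 and 22 L6-Syt6 neurons. These 2 clusters had similar RNA depth, with cluster 3 deeper in all libraries but mouse 2, where cluster 1 was deeper.

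DMS and AI did not follow that order. For AI, cluster 1 minus cluster 3 was -1.16, -0.239, 4.27 and 5.19 points (exact permutation p = 0.5). For DMS, cluster 1 had 2.37%, 3.83%, 4.63% and 40.2% and cluster 3 had 3.65%, 4.35%, 3.63% and 32.5%, a difference of 1.72 ± 4.07 points with 2 of 4 libraries positive (exact permutation p = 0.75). Without the FAC-sorted library the DMS difference was -0.264 points. Cluster 0 minus clusters 1 and 3 together was -16.5 ± 11.8 points in the barcoded share (-10.6 ± 0.831 in the unsorted mice), -9.46 ± 8.00 in MD (-5.49 ± 1.11 in the unsorted mice), -5.33 ± 4.00 in LH (-3.35 ± 0.655) and -8.84 ± 11.7 in DMS (-2.99 ± 0.342), each with 4 of 4 libraries negative (exact sign-flip permutation p = 0.13, adjusted p = 0.188). In neurons of 20000 to 30000 RNA UMIs the same difference was -13.9 points in the barcoded share and -6.44 in MD, and cluster 1 exceeded cluster 3 by 9.27 points in MD and 11.8 in LH. These are 4-library means. The FAC-sorted library had 154 neurons in this window over all clusters, 15 with a valid MD and 10 with a valid LH barcode. LH-alone neurons lay in cluster 1 in 63.2%, 58.6%, 62.5% and 35.9% of cases, DMS-alone neurons in cluster 3 in 54.5%, 60.0%, 42.9% and 46.7% and in cluster 1 in 36.4%, 33.3%, 42.9% and 46.7%, and neurons without a valid barcode in cluster 0 in 51.5%, 52.2%, 49.9% and 54.1%. The reference used for the transcriptome included the 5 barcodes as genes, and whether barcode transcripts entered the clustering is not stated in the sources used here.

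**Figure D5:**
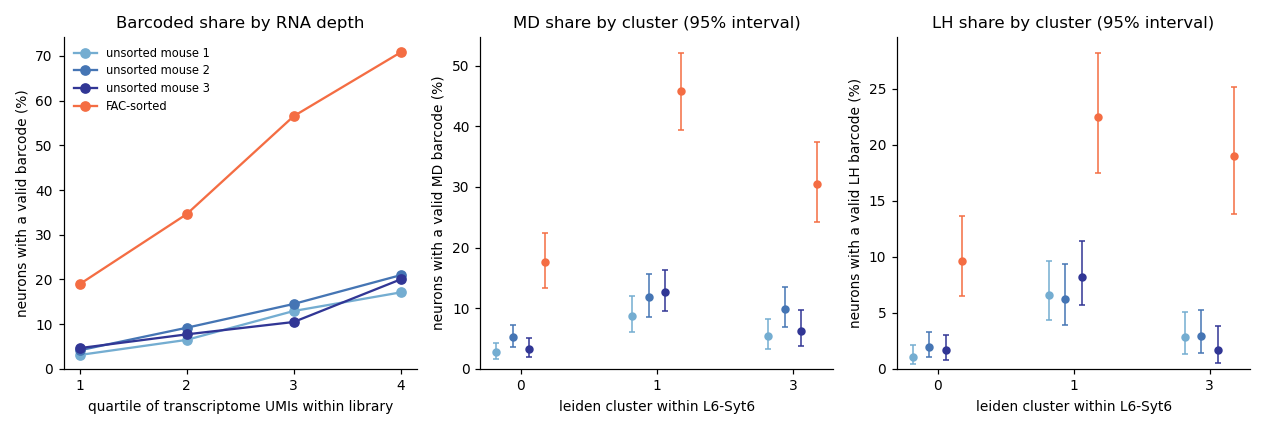
Left, percent of L6-Syt6 neurons with a valid barcode by quartile of RNA UMIs within each library. Right, percent with a valid MD or LH barcode in the authors' clusters 0, 1 and 3 by library, with 95% Clopper-Pearson intervals. The barcoded share is highest in the highest quartile of each library, from 17.1 to 70.8%, and cluster 1 is the highest for MD and for LH in all 4 libraries.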

How the data were processed

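Projectome and transcriptome data of 4 libraries (vmPFC, 10x v3) were used. The authors aligned transcriptomes with Cell Ranger to mm10 with the 5 barcodes added, filtered cells on genes, UMIs and mitochondrial percent, treating cells above the upper limits as possible doublets, regressed out counts, genes, mitochondrial ratio and sorting, clustered with Leiden and removed low-quality excitatory clusters and the cells whose summed barcode UMIs exceeded the 95th percentile. Barcode UMIs had been counted per barcode with a modified deMULTIplex at up to 2 mismatches. Each threshold was a 99.9th percentile, the higher of that in non-neuronal cells and that in cells of the FAC-sorted library without EGFP RNA UMIs. The deposited values used were raw counts of barcode UMIs per cell, and in the annotation the RNA UMI counts, genes, and mitochondrial percent per cell. 22 columns of whole-series tables were not used.

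Neurons were joined by library and cell name, and a barcode was valid above the threshold. UMIs were also recounted from the deposited reads. Shares were taken within each library, and libraries, not cells, were the replicates. Differences were tested with exact two-sided sign-flip permutation tests over the 4 libraries (smallest p 0.13, as 2 of 16 sign patterns), so no test could reach 0.05, and the sorted library was set against the 3 unsorted ones with an exact one-sided permutation test (smallest p 0.25). Each sign-flip p rests on 3 mice and 1 pooled library and is at its smallest whenever all 4 signs agree, whatever the spread. The FAC-sorted library was selected for label, so it was no like replicate of the unsorted mice, although it counts as 1 of the 4. Benjamini-Hochberg adjustment ran over 6 target comparisons, 10 target contrasts, 10 pairs and 12 cluster contrasts. Intervals are 95% Clopper-Pearson, and a count of 0 allows 3 counts of the total. PCR reads were not treated as molecules.

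The text names all 5 targets, 10 pairs, 7 subtypes and each combination with at least 10 neurons. Members, lists and tests were chosen with earlier results of these data known. The clusters, the RNA quartiles and the window of 20000 to 30000 RNA UMIs, the combination make-up, the partners of shared UMIs, LH labelling given DMS and the collateral difference from other subtypes were added after seeing the data. The scripts recovered 22 of 22 quantities in simulated data. Analyses used python 3.11.15, numpy 2.4.6, pandas 2.3.3, scipy 1.17.1 and matplotlib 3.10.9.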

Additional observations from a re-analysis of the deposited data

Results flagged for a closer look

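The DMS and LH shares of L6-Syt6 neurons stood in opposite order in the sorted and unsorted libraries. DMS was above LH by 9.88 percentage points in the FAC-sorted library, and LH was above DMS by 1.26, 0.591 and 1.00 points in the 3 unsorted mice. The difference between the groups was not tested, since the FAC-sorted group is 1 library. After shared UMIs were given to 1 barcode, LH was above DMS in all 4 libraries, by 1.40, 1.11 and 2.23 points in the unsorted mice and 7.44 points in the FAC-sorted library. In neurons of 20000 to 30000 RNA UMIs LH minus DMS was -0.649 points in the FAC-sorted library. With UMIs of at least 2 reads LH minus DMS was -0.0701, -0.148, -0.231 and -0.677 points in the 4 libraries. These rest on 2, 1, 1 and 22 LH-labelled and 3, 3, 4 and 27 DMS-labelled neurons. LH minus DMS in the FAC-sorted library was 3.11 points at thresholds 1.5 times as high and 0.541 with thinned reads. It was 2.30 at the stricter percentile of non-neuronal cells that was tried. With thresholds per 10000 RNA UMIs, LH was valid in 7.98% and DMS in 1.08% of its L6-Syt6 neurons. At the 99th percentile of non-neuronal cells nearly all of its 739 L6-Syt6 neurons were labelled, 725 for DMS and 722 for LH. DMS stayed above LH in the FAC-sorted library with exact barcode matches. So it did without neurons above the 90th percentile of RNA UMIs, and without those under 10000.

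The collateral share of barcoded neurons also differed in direction. L6-Syt6 minus the other subtypes was 10.1 points in the FAC-sorted library and -11.8, -8.45 and -6.70 points in the unsorted mice, and this difference between the groups was not tested. The FAC-sorted value was -4.94 points with shared UMIs given to 1 barcode, -5.25 at thresholds 1.5 times as high, -2.32 with thresholds per 10000 RNA UMIs and 1.17 with thinned reads, so the opposite direction was not kept under the first 3. The FAC-sorted value stayed positive at 10.7 with exact barcode matches and 10.2 with UMIs of at least 2 reads. The FAC-sorted library had 14639 barcode reads per recovered cell against 2542 to 4544 in the unsorted mice, and its L6-Syt6 neurons had a median of 35305 RNA UMIs against 28567 in its other subtypes. The highest barcode sum kept in an L6-Syt6 neuron was 1005 UMIs against 398 to 528. Depth, sorting and mice cannot be told apart here.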

How the results depend on the processing

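Of the differences between L6-Syt6 and other subtypes, the 4-library means for AI, DMS and BLA kept their direction in 16 of 16 alternatives, and those for MD and LH in 15 of 16 each. Single libraries reversed where the mean did not. For LH, with UMIs of at least 2 reads it was -0.156, -0.179 and -0.167 points in the unsorted mice (2.59 FAC-sorted), per 10000 RNA UMIs -0.167 in mouse 1, and at the stricter percentile named below -0.725 in mouse 3. The unsorted values with at least 2 reads rest on LH calls in 2, 1 and 1 L6-Syt6 neurons. At the 99th percentile of non-neuronal cells the FAC-sorted library had 0.0638 for DMS and 0.0708 for BLA. There 734 of its 739 L6-Syt6 neurons counted as barcoded, 725 of them for DMS and 617 for BLA. The means of the lower barcoded and MD shares of cluster 0 and the higher MD share of cluster 1 over cluster 3 kept theirs in 16 of 16, and the RNA ratio in 15 of 15, as did FAC-sorted above unsorted, at 3.11 to 43.3 points. At the 99th percentile, where 99.3% of its L6-Syt6 neurons were barcoded and 98.1% had MD, the FAC-sorted library had the opposite signs here too. These were 1.11 points barcoded and 3.12 in MD for cluster 0, and -5.62 in MD and -2.92 in LH for cluster 1 over cluster 3. With nearly all neurons called, little room was left for a difference between clusters. For LH the FAC-sorted value of cluster 1 over cluster 3 was also -1.09 with thinned reads. With UMIs of at least 2 reads the log2 RNA ratio of mouse 1 was -0.12, on 8 barcoded neurons. With valid barcodes set at the 99th percentile of non-neuronal cells, MD and LH against other subtypes were -6.85 and -10.0 points, MD minus DMS -1.25, LH minus DMS in the unsorted mice -4.36, the barcoded share 62.0%, the collateral share 78.5% and DMS of cluster 1 minus cluster 3 -0.517. At the stricter percentile of non-neuronal cells that was tried, which lies below the authors' thresholds, the barcoded share was 21.8% and LH minus DMS 7.59. With thresholds 1.5 times as high, the barcoded share was 4.48%, LH minus DMS 0.0343, the collateral share 7.96%, LH in MD-labelled minus other neurons -0.0667 and the DMS cluster difference -0.484. With thresholds per 10000 RNA UMIs these were 9.10% barcoded, 2.88 points for LH minus DMS, 7.47% collateral and -0.0426 for the DMS cluster difference. With UMIs of at least 2 reads, 0.922% were barcoded, LH minus DMS was -0.150, the collateral share 7.07%, LH of cluster 1 minus cluster 3 -0.185 and the collateral difference from other subtypes 0.332. With shared UMIs given to 1 barcode, LH minus DMS was 1.58, the collateral share 4.75%, LH in MD-labelled minus other neurons -0.766, LH in DMS-labelled minus other neurons -2.95 and the DMS cluster difference -1.57. With thinned reads the barcoded share was 7.99%, the collateral share 9.11% and the DMS cluster difference -1.69. Without neurons above the 90th percentile of RNA UMIs 9.58% were barcoded. In neurons of 20000 to 30000 RNA UMIs the values were 12.5% barcoded, 1.61 for LH minus DMS and -4.71 for the DMS cluster difference. The cause of these changes was not tested beyond what each alternative changes. Leaving out each library in turn gave 10.3 to 11.4% barcoded, 6.15 to 12.3 points for MD and 1.48 to 5.45 for LH against other subtypes, 3.88 to 4.58 for MD minus DMS, 22.4 to 38.1% collateral, 4.78 to 7.87 for LH in MD-labelled minus other neurons, and for DMS of cluster 1 minus cluster 3 a range of -0.264, without the FAC-sorted library, to 2.71. The lowest MD, LH and collateral values are those without that library.

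Contrasts between subtypes, targets or clusters were paired within a library. The sorted and unsorted groups came from different mice and could not be paired.

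The design of 3 mice and 1 pooled library limits every p to 0.13 or more. BLA rested on 23 neurons, and a count of 0 in mice 1 and 2 allows shares of up to 0.210% and 0.222%.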
